A study of Homo sapiens with 6 samples.

Results

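The genes described here encode the enzymes and regulators of cholesterol and fatty acid synthesis, 42 genes chosen by name from the known pathways. Of these, 37 were measured by a probe set that the platform annotation pairs with 1 gene symbol, 23 on the sterol side and 14 on the fatty acid side, among 19775 genes tested in all. CYP51A1, ELOVL1 and FADS1 are paired only with probe sets that carry several symbols, and these genes, FDFT1 and ACSL3 are not analysed here. A gene with several probe sets is represented by the one with the highest mean signal over all arrays.

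The study used SUM149 cells, a human cell line from an inflammatory breast cancer, grown in Ham's F-12 medium with hydrocortisone at 1 µg/ml, insulin at 5 µg/ml and 5% fetal bovine serum. Cells in the siTIG1 group received an ON-TARGET Plus siRNA pool against TIG1 (current symbol RARRES1), and those in the siControl group a non-targeting siGENOME pool, each at 200 nmol/L with oligofectamine. Each group has 3 Affymetrix HG-U133 Plus arrays, and the comparison asks which transcripts differ once TIG1 is targeted. The groups differ in the product line of the siRNA as well as in its target, and only this 1 cell line was used. The labels give no time after transfection and do not say whether replicates were separate cultures, so p-values measure the spread between these arrays, which may be technical.

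Cholesterol is built from acetyl-CoA through mevalonate, isoprenoid units, squalene and lanosterol, while fatty acids are built from the same acetyl-CoA through malonyl-CoA and are then elongated, desaturated and joined to glycerol. Both routes are driven by the SREBP transcription factors, which SCAP escorts from the endoplasmic reticulum to the Golgi for cleavage and which the INSIG proteins hold back when sterols are plentiful. Insulin and serum lipids are known inputs to this control, and tumour cells commonly make their own lipids.

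All values are deposited log2 signals, and differences are siTIG1 minus siControl from limma with its standard error (SE). A gene was called at an adjusted p under 0.05 (Benjamini-Hochberg over all 19775 genes), and every adjusted p below comes from this limma fit unless probe sets are named. TIG1 itself read 12.65, 12.61 and 13.74 on siControl replicates 1, 2 and 3 and 12.69, 11.95 and 11.87 on the arrays labelled siTIG1 replicates 1, 2 and 3. The groups overlapped and the difference of -0.83 ± 0.36 (SE) did not pass (adjusted p = 0.25), and siTIG1 replicate 1 did not read below the first 2 controls on this probe set. Without siControl replicate 3 TIG1 was at -0.46 ± 0.20 (SE) and did not pass either (adjusted p = 0.12). On its other probe sets every siTIG1 array lay below every control. The first of these read 11.04, 10.92 and 12.58 on the controls and 10.72, 10.03 and 9.96 on the siTIG1 arrays (-1.28, adjusted p = 0.20 over all probe sets), and the other 11.89, 11.88 and 13.55 against 11.72, 10.95 and 10.95 (-1.24, adjusted p = 0.23). The array of siControl replicate 3 correlated with the other controls at 0.985, whereas those correlated with each other at 0.998 and with the siTIG1 arrays at 0.992 to 0.993. On that array the median of 25 S phase genes lay 1.32 below the other controls, and that of 24 genes of the unfolded protein and integrated stress response 0.43 above. The 3' minus 5' signal of ACTB, a measure of RNA quality that grows with degradation, was 3.21 there, 2.73 and 2.62 on siControl replicates 1 and 2, and between 2.14 and 2.34 across siTIG1. The same measure for GAPDH was 0.57 there, 0.48 and 0.46 on siControl replicates 1 and 2, and 0.46 to 0.47 across siTIG1. For GAPDH the groups overlapped. Without siControl replicate 3, 20 of the 25 S phase genes were called lower in siTIG1 and 0 higher (median -0.27), against 14.9% of all genes lower. With all arrays 0 of the 25 were called. The part of these features in the results below was not tested, and results are given with and without siControl replicate 3. As a check of the cell type, KRT5, CDH1, EPCAM, KRT8 and KRT18 of the basal breast epithelial list had mean signals of 12.31 to 14.36, and KRT14, a basal keratin, 8.49, beside a median of 8.74 over all genes. In the luminal hormone receptor list GATA3 and XBP1 read 11.26 and 10.90 and the other 4 genes 6.91 to 8.86. These markers were singled out after their values were seen, most of the high ones are epithelial rather than basal, and levels of different probe sets are not comparable, so they do not settle the subtype. The leukocyte, fibroblast, endothelial and adipocyte lists had medians of 7.43 to 8.28. Their highest genes read 9.42, 11.27, 9.32 and 10.73 in that order, so these lists were not low throughout. Summarised log2 signals carry no detection call, so no marker is shown to be absent.

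Across the pathway, 1 gene rose and 4 fell in the siTIG1 group. AACS, which activates acetoacetate for lipid synthesis, was 1.38-fold higher. LPIN1, the phosphatidate phosphatase lipin-1, was 1.65-fold lower, the elongase ELOVL7 1.50-fold lower, the SREBP escort SCAP 1.24-fold lower and lanosterol synthase (LSS) 1.23-fold lower. The other 32 did not pass. The 5 called genes are 13.5% of the 37, and the percentage called among all genes tested was 7.32. For falls alone the counts are 4 of 37 against 4.17% of all genes, and for rises 1 of 37 against 3.15%. The 37 genes were brighter, with a median gene mean of 10.97 against 8.74 over all genes. With only genes above 8.74 tested, 494 genes were higher and 824 lower, and among the lipid synthesis genes still 1 and 4. The share called among such brighter genes was thus above 7.32%, and no share of all genes given here is matched for signal. The median difference was 0.04 over the 23 sterol genes and -0.08 over the 14 fatty acid genes, beside 0.02 over all genes. Differences ran from -0.84 for SREBF1 to 0.75 for ACAT2, and neither of these passed.

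**Figure D1:**
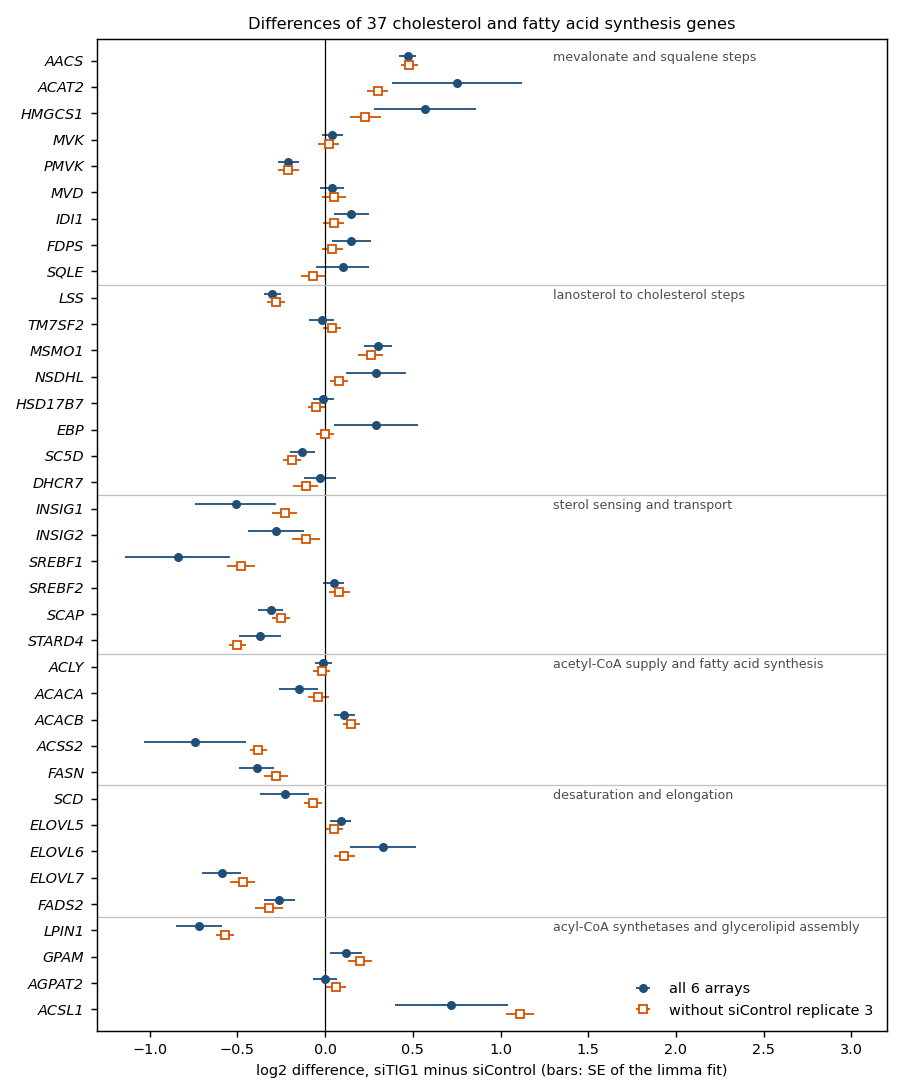
The log2 difference between siTIG1 and siControl for each of the 37 genes, in pathway order, with the SE of the limma fit. Filled circles use all 6 arrays and open squares leave out siControl replicate 3; most bars shorten without that array, SREBF1 moves from -0.84 to -0.48 and ACSL1 from 0.72 to 1.11, while AACS stays at 0.47 and 0.48.

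The arrays of the groups did not overlap for 18 of the 37 genes (48.6%), with 7 higher and 11 lower in siTIG1, against a background of 32.0% of all genes. AACS was the one call kept whichever single array was left out (highest adjusted p of 0.048). The falls of LSS, SCAP and ELOVL7 were each called in 1 of the 6 fits that leave out an array, the one without siControl replicate 3, and that of LPIN1 in 2. Without siControl replicate 3, 16 of the 37 genes passed (43.2%), 4 higher and 12 lower, while 27.2% of all genes passed. Leaving out any other array left 1 or 2 calls among the 37, and the share among all genes then lay between 1.12% and 3.03%.

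**Figure D2:**
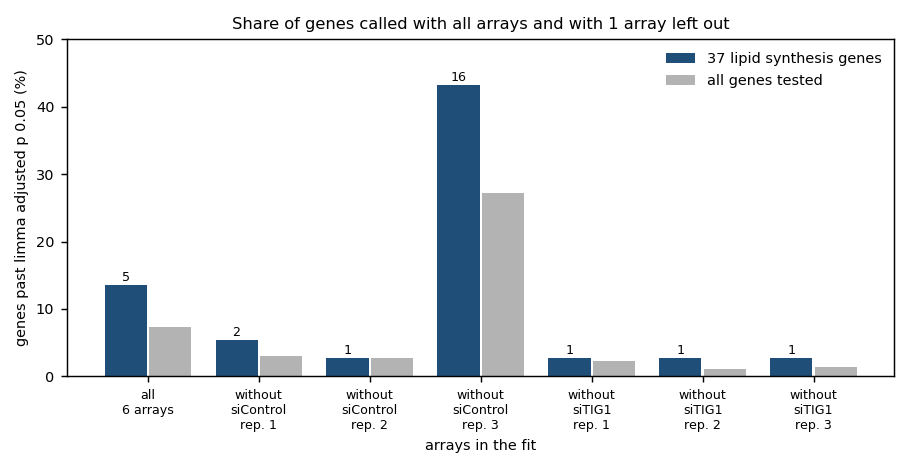
Percentage of genes past an adjusted p of 0.05 among the 37 lipid synthesis genes (dark bars, with the count above) and among all 19775 genes (grey bars), with all 6 arrays and with each array left out in turn. The dark bar is 13.5% with all arrays and 43.2% without siControl replicate 3, and the grey bar rises from 7.32% to 27.2%.

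The promoters of 4 of the called genes are shown, those with a single start in the RefSeq table, together with those of INSIG1 and MSMO1, which are classical SREBP targets with a positive (MSMO1) and a negative (INSIG1) difference. SREBPs bind a sterol regulatory element and act with the neighbouring factors NF-Y and Sp1. Each run is the 250 bases upstream of the RefSeq start, 5′ to 3′ on the strand of the gene, in build GRCh38.p14, and capitals mark matches on either strand to the core of the SREBP element (CACNCCAC), the NF-Y box (CCAAT) or the Sp1 box (GGGCGG).
AACS (chr12:125065185-125065434, plus strand): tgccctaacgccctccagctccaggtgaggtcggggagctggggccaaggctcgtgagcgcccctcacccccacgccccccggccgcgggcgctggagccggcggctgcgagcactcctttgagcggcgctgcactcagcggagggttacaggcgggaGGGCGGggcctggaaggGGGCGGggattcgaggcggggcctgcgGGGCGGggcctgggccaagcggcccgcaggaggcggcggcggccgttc
LSS (chr21:46228775-46229024, minus strand): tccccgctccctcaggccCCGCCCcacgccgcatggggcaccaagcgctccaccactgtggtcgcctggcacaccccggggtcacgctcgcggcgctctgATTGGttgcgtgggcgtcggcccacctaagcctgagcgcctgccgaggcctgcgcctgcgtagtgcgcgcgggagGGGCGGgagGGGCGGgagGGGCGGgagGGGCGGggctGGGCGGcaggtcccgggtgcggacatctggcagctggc
SCAP (chr3:47475942-47476191, minus strand): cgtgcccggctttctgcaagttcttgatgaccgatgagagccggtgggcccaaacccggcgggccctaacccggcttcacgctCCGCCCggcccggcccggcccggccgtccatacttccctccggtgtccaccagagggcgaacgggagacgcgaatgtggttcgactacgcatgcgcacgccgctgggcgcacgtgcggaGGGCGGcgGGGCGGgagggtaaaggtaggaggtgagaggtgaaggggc
ELOVL7 (chr5:60844270-60844519, minus strand): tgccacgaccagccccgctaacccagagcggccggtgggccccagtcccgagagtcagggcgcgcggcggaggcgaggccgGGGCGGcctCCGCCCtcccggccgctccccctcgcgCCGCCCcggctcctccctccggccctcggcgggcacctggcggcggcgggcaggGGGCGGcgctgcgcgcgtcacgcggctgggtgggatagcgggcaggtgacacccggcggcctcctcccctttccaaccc
INSIG1 (chr7:155297628-155297877, plus strand): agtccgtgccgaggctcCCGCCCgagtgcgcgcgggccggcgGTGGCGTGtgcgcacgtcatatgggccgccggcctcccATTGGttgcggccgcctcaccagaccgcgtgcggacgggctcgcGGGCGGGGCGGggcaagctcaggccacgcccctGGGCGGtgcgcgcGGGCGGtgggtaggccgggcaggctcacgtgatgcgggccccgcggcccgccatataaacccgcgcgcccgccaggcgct
MSMO1 (chr4:165327419-165327668, plus strand): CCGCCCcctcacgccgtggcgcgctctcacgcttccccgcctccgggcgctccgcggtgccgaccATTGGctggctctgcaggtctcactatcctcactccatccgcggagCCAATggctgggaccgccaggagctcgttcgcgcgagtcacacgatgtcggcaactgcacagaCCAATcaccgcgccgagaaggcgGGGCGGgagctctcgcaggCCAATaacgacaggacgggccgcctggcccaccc

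INSIG1 holds 1 SREBP core, 1 NF-Y box and 5 Sp1 boxes in this window, of which a pair overlap. MSMO1 holds 4 NF-Y boxes and 2 Sp1 boxes, and LSS 1 NF-Y box and 6 Sp1 boxes. AACS, SCAP and ELOVL7 hold Sp1 boxes alone, 3, 3 and 4 of them. The RefSeq table matched 34 of the 37 genes, with 52 starts. An SREBP core lay upstream of 13.5% of these starts and of 4.87% of all 35116 starts in the table, an NF-Y box of 51.9% and 32.0%, and an Sp1 box of 80.8% and 42.6%. A match describes the letters in the window and says nothing of whether a factor binds there.

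The first steps of the mevalonate route carried the 1 rise. Of 9 measured genes from AACS to SQLE, AACS rose, none fell and 8 did not pass, with 8 positive differences and a median of 0.15. AACS read 10.72, 10.72 and 10.77 on siControl replicates 1 to 3 and 11.22, 11.21 and 11.18 on the siTIG1 arrays. The replicates of each group lay within 0.05 of each other, and the groups were clearly separate (0.47 ± 0.05 SE, adjusted p = 0.0053). Its level on siControl replicate 3 was 0.05 from the other controls, so this call does not rest on that array.

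ACAT2, the cytosolic thiolase that joins acetyl-CoA units, read 11.55, 11.51 and 10.17 on the controls and 11.74, 11.84 and 11.89 on the siTIG1 arrays. The groups did not overlap, but siControl replicate 3 lay 1.36 below the other controls, and the difference of 0.75 ± 0.37 (SE) did not pass (adjusted p = 0.30). Without that array the difference was 0.30 ± 0.06 (SE) and passed (adjusted p = 0.0055). HMGCS1, the cytosolic HMG-CoA synthase, had the same shape, with 8.30, 8.52 and 7.40 on the controls against 8.48, 8.67 and 8.78. Its difference was 0.57 ± 0.29 (SE, adjusted p = 0.31) and, without siControl replicate 3, 0.23 ± 0.09 (SE, adjusted p = 0.099), so it passed in neither fit.

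PMVK, phosphomevalonate kinase, was the 1 gene of this stretch with a negative difference. It read 9.91, 9.97 and 9.95 on the controls and 9.80, 9.64 and 9.76 on the siTIG1 arrays, without overlap, at -0.21 ± 0.06 (SE, adjusted p = 0.098). Without siControl replicate 3 the difference was the same size, -0.21, and passed (adjusted p = 0.033). The neighbouring kinase MVK, the decarboxylase MVD, the isomerase IDI1, the farnesyl diphosphate synthase FDPS and the squalene epoxidase SQLE differed by 0.04 to 0.15, with adjusted p-values of 0.44 to 0.79, and overlapped between groups. For IDI1 and SQLE, 2 of 4 probe sets each had the opposite sign, and the SQLE difference was -0.07 without siControl replicate 3. FDPS read 12.42, 12.36 and 12.05 on the controls and 12.32, 12.48 and 12.49 on the siTIG1 arrays, and its difference was 0.15 with siControl replicate 3 and 0.04 without it.

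From lanosterol to cholesterol, LSS fell, none of the 8 measured genes rose and 7 did not pass, with a median of -0.02. LSS, which closes the sterol ring system, read 11.57, 11.52 and 11.61 on the controls and 11.26, 11.30 and 11.25 on the siTIG1 arrays. All siTIG1 arrays lay below all controls, at -0.30 ± 0.05 (SE, adjusted p = 0.021, and 0.054 with a trended robust variance). Its other probe sets, with control means of 6.58 and 7.18, differed by 0.06 and 0.04 and had the opposite sign, and with the probe sets averaged LSS was at -0.07 (adjusted p = 0.57). MSMO1, the methylsterol oxidase that strips methyl groups from the sterol ring, read 12.26, 12.23 and 12.12 against 12.37, 12.55 and 12.61. The groups were separate in the other direction (0.30 ± 0.08 SE, adjusted p = 0.081), and without siControl replicate 3 the difference of 0.26 passed (adjusted p = 0.024).

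EBP and NSDHL, an isomerase and a dehydrogenase of the late pathway, had positive differences that were close to 0 without siControl replicate 3. EBP read 12.24, 12.23 and 11.34 on the controls and 12.23, 12.20 and 12.26 on the siTIG1 arrays. Its difference was 0.29 ± 0.24 (SE, adjusted p = 0.55) with all arrays and 0.00 ± 0.05 (SE) without that control. NSDHL read 11.52, 11.54 and 10.91 against 11.64, 11.59 and 11.60, at 0.29 with all arrays and 0.08 without it, and passed in neither fit. SC5D, the sterol desaturase, was at -0.13 (adjusted p = 0.34) and, without siControl replicate 3, at -0.19 (adjusted p = 0.023). TM7SF2, HSD17B7 and DHCR7, enzymes of the later reductions, differed by -0.03 to -0.01, values that turned to 0.00 to 0.04 under quantile normalization, and overlapped between groups.

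Genes that sense and move sterols had mostly negative differences. Of 6 measured, SCAP fell, none rose and 5 did not pass, with 5 negative differences and a median of -0.34. SCAP read 10.21, 10.20 and 10.38 on the controls and 9.99, 9.96 and 9.90 on the siTIG1 arrays. Its fall of 0.31 ± 0.07 (SE) was close to the threshold (adjusted p = 0.047), and it did not pass when every probe set was tested (0.055), under quantile normalization (0.085) or with a trended robust variance (0.075). SREBF1, which encodes the SREBP forms that drive lipogenic genes, read 10.43, 10.53 and 11.57 on the controls and 10.18, 9.95 and 9.88 on the siTIG1 arrays. Every siTIG1 array lay below every control, yet siControl replicate 3 stood 1.09 above the other controls and the difference of -0.84 ± 0.30 (SE) did not pass (adjusted p = 0.17). Without it the difference was -0.48 ± 0.08 (SE, adjusted p = 0.0027), 1.39-fold lower. The second SREBF1 probe set, with a control mean of 8.46, was at 0.00. With the probe sets averaged and all arrays SREBF1 was at -0.42 (adjusted p = 0.22).

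INSIG1, the sterol-sensing retention protein whose promoter carries the SREBP core printed above, read 12.20, 12.18 and 13.04 on the controls and 11.83, 12.03 and 12.02 on the siTIG1 arrays. The groups did not overlap, all 3 of its probe sets had a negative difference, and the representative one was at -0.51 ± 0.23 (SE, adjusted p = 0.27). Without siControl replicate 3 it was at -0.23 ± 0.07 (SE, adjusted p = 0.034). INSIG2, its paralog, read 9.81, 10.03 and 10.43 against 9.78, 9.73 and 9.93, overlapping, at -0.28 (adjusted p = 0.37). Without siControl replicate 3 INSIG2 was at -0.11. STARD4, a cytosolic sterol carrier, read 10.53, 10.55 and 10.15 against 10.04, 10.10 and 9.99. Here siControl replicate 3 lay 0.40 below the other controls, so the difference was larger in size without it, -0.50 ± 0.05 (SE, adjusted p = 0.00015), than with it, -0.37 ± 0.12 (SE, adjusted p = 0.13). SREBF2, the sterol-directed SREBP gene, was at 0.05 (adjusted p = 0.69) on the representative probe set and at -0.21 and -0.16 on the others, and none of them passed.

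**Figure D3:**
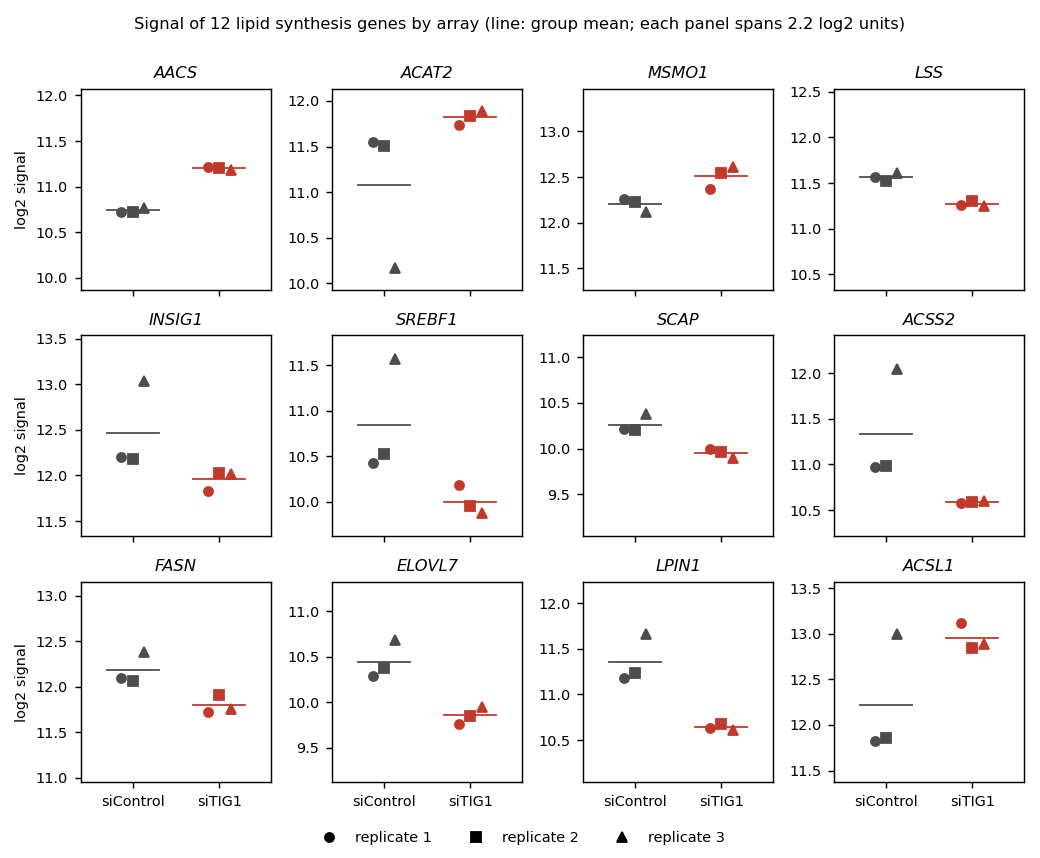
Log2 signal of 12 of the genes on each array, siControl in grey and siTIG1 in red, with a symbol for each replicate and a line at the group mean; every panel spans the same 2.2 log2 units. The groups overlap for ACSL1 and are separate in the other panels, of which AACS, LSS, SCAP, ELOVL7 and LPIN1 are the called genes. In ACAT2, INSIG1, SREBF1, ACSS2 and ACSL1 the triangle of siControl replicate 3 stands apart from the other controls.

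On the fatty acid side, acetyl-CoA supply and the synthase came first. None of the 5 measured genes passed limma's threshold with all arrays, and 2 had an unadjusted p under 0.05, ACSS2 and FASN, both lower, where 21.9% of all genes passed that threshold, 10.5% higher and 11.4% lower. ACSS2, which makes acetyl-CoA from acetate, read 10.97, 10.98 and 12.05 on the controls and 10.58, 10.59 and 10.60 on the siTIG1 arrays. The siTIG1 arrays lay below every control with an SD of 0.01, but siControl replicate 3 was 1.07 above the other controls, and the difference of -0.74 ± 0.29 (SE) had an adjusted p of 0.20. Without that array it was -0.38 ± 0.05 (SE, adjusted p = 0.00039). FASN, the fatty acid synthase, read 12.10, 12.06 and 12.38 against 11.72, 11.91 and 11.76, at -0.39 ± 0.10 (SE, adjusted p = 0.085). The groups were separate, the fall without siControl replicate 3 was 0.28 (adjusted p = 0.010), and a dimmer second probe set was at 0.09.

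ACLY, the citrate lyase, and the carboxylases ACACA and ACACB, which make malonyl-CoA, differed by 0.15 or less in size. ACLY read 13.82 to 13.88 on the controls and 13.78 to 13.88 on the siTIG1 arrays, a difference of -0.01 (adjusted p = 0.91), with 0.23 and 0.18 on its other probe sets. ACACA was at -0.15 (adjusted p = 0.49), at -0.04 without siControl replicate 3, and at 0.21 on its second probe set with all arrays. ACACB was at 0.11 (adjusted p = 0.33) with separate groups, but 5 of its 7 probe sets did not share that sign.

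Among 5 measured desaturases and elongases, ELOVL7 fell, none rose and 4 did not pass, with a median of -0.23. ELOVL7, an elongase of very long saturated chains, read 10.29, 10.37 and 10.68 on the controls and 9.76, 9.85 and 9.95 on the siTIG1 arrays. Its fall of 0.59 ± 0.11 (SE, adjusted p = 0.033) was 0.47 without siControl replicate 3 (adjusted p = 0.00065). ELOVL6, which elongates palmitate, had a positive difference instead, with 11.30, 11.25 and 10.62 on the controls and 11.33, 11.37 and 11.48 on the siTIG1 arrays (0.33 ± 0.19 SE, adjusted p = 0.36). Its other probe sets were at 0.39 and -0.34, and their average with the first at 0.13. Without siControl replicate 3, which lay 0.66 below the other controls, the value was 0.11. ELOVL5, the elongase of polyunsaturated chains, was at 0.09 with separate groups and an adjusted p of 0.43.

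SCD, the stearoyl-CoA desaturase, gave mixed signs across its probe sets. The representative one read 13.67, 13.63 and 14.13 on the controls and 13.55, 13.59 and 13.59 on the siTIG1 arrays, without overlap, at -0.23 ± 0.14 (SE, adjusted p = 0.38). Without siControl replicate 3, which lay 0.48 above the other controls, this probe set was at -0.07 (adjusted p = 0.31). The other 3 were at 0.05, 0.29 and 0.30, and none passed over all probe sets. FADS2, the first desaturase of polyunsaturated fatty acids, read 10.76, 10.83 and 10.61 against 10.36, 10.64 and 10.43. The groups overlapped, at -0.26 ± 0.09 (SE, adjusted p = 0.18), and without siControl replicate 3 the difference of -0.32 passed (adjusted p = 0.015).

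In fatty acid activation and glycerolipid assembly, LPIN1 fell, none of the 4 measured genes rose and 3 did not pass. LPIN1 read 11.18, 11.24 and 11.66 on the controls and 10.63, 10.68 and 10.61 on the siTIG1 arrays. Every siTIG1 array lay below every control (-0.72 ± 0.13 SE, adjusted p = 0.026), and all 3 probe sets had this sign, at -0.57 and -0.07 for the other two; with the probe sets averaged it was at -0.45 (adjusted p = 0.056). Without siControl replicate 3 the difference was -0.57 (adjusted p = 6.1e-05). GPAM, the mitochondrial acyltransferase of the first glycerolipid step, and AGPAT2, which acts on the next, were at 0.12 and 0.00 with adjusted p-values of 0.51 and 0.99.

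ACSL1, an acyl-CoA synthetase that activates long-chain fatty acids, gained a call when siControl replicate 3 was left out. It read 11.82 and 11.86 on siControl replicates 1 and 2, 13.00 on siControl replicate 3 and 13.12, 12.84 and 12.89 on the siTIG1 arrays. That control thus lay inside the range of the siTIG1 group and 1.16 above the other controls. With all arrays the difference was 0.72 ± 0.32 (SE, adjusted p = 0.26). Without that array it was 1.11 ± 0.08 (SE, adjusted p = 1.8e-05), 2.16-fold, the largest among the 37 genes in that fit. A second probe set gave the same picture, with 10.89, 11.05 and 12.22 on the controls and 12.33, 12.07 and 12.13 on the siTIG1 arrays.

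The array of siControl replicate 3 stood more than 0.5 from the mean of the other controls for 11 of the 37 genes, against 14.0% of all genes. It was that much lower for 6 of them, ACAT2, HMGCS1, SQLE, NSDHL, EBP and ELOVL6, against 7.13% of all genes. It was that much higher for 5, INSIG1, INSIG2, SREBF1, ACSS2 and ACSL1, against 6.91%. Its low genes were enzymes, mostly of sterol synthesis, and its high genes were 3 regulators and 2 enzymes that activate acetate or fatty acids. The median deviation of that array was -0.29 over the mevalonate genes, -0.16 over the lanosterol to cholesterol genes and 0.35 over the sterol sensing genes. With it in the fit, the mevalonate genes had a median difference of 0.15 and the sensing genes one of -0.34, and without it these were 0.05 and -0.24.

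**Figure D4:**
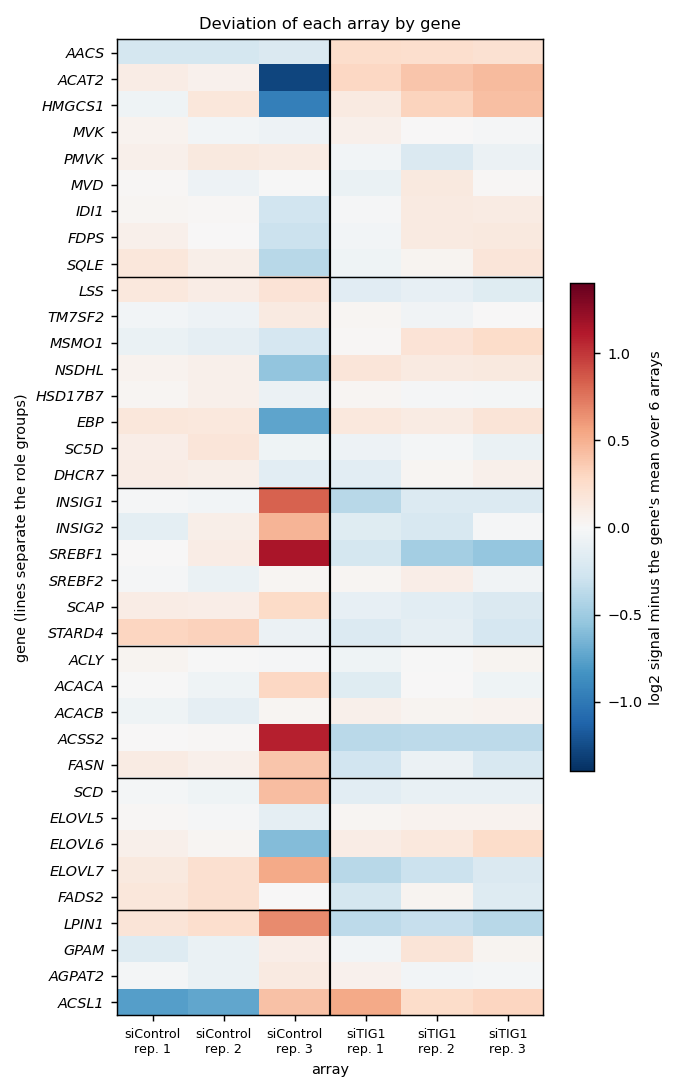
Log2 signal of each of the 37 genes on each array minus that gene's mean over 6 arrays, red above and blue below, with lines between the role groups and a thick line between siControl and siTIG1. The column of siControl replicate 3 holds the deepest colours, blue for ACAT2 and HMGCS1 and red for SREBF1 and ACSS2, and siTIG1 columns resemble each other.

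In 7 lists of related pathways the share called ran from 0% for the isoprenoid branches to 25.0% for AMPK, against 7.32% of all genes. It was 21.4% for sterol efflux, storage and LXR, 13.3% for the other glycerolipid genes and 12.5% for SREBP cleavage and INSIG turnover. For fatty acid oxidation it was 11.8%, and for the other genes of fatty acid synthesis and elongation 5.88%. These lists were brighter too, with median gene means of 9.94 to 11.66 against 8.74 over all genes. Among genes of sterol efflux, storage and the LXR receptors, LIPA and SOAT1 rose, LPCAT3 fell and 11 of 14 did not pass. LIPA, the lysosomal acid lipase, read 11.79, 11.82 and 11.75 on the controls and 12.36, 12.43 and 12.59 on the siTIG1 arrays (0.67 ± 0.07 SE, adjusted p = 0.0061), although its second probe set had the opposite sign. SOAT1, which esterifies cholesterol for storage, read 10.91, 10.88 and 10.96 against 11.31, 11.38 and 11.34 (0.43 ± 0.05 SE, adjusted p = 0.0083), with the same sign on 1 of its 3 probe sets. With probe sets averaged it was at 0.08 (adjusted p = 0.46). LPCAT3, a phospholipid acyltransferase, was at -0.39 (adjusted p = 0.037), and its second probe set did not share that sign (-0.14 when averaged, adjusted p = 0.20). Of 8 genes of SREBP cleavage and INSIG turnover, the ubiquitin ligase RNF139 fell (-0.34, adjusted p = 0.036) and 7 did not pass. None of 11 genes of the isoprenoid branches passed limma's threshold, and 2 had an unadjusted p under 0.05, both lower, against 11.4% of all genes lower at that threshold; FNTB, a farnesyltransferase subunit, was at -0.52 (adjusted p = 0.12).

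In the other genes of glycerolipid assembly, CDS2 and AGPAT1 fell and 13 of 15 did not pass. CDS2, a CDP-diacylglycerol synthase that competes with lipin-1 for phosphatidate, read 10.51, 10.58 and 10.78 on the controls and 9.88, 9.90 and 9.82 on the siTIG1 arrays (-0.75 ± 0.08 SE, adjusted p = 0.0060). AGPAT1, an acyltransferase of the same route, was at -0.40 (adjusted p = 0.040). SCD5, a second stearoyl-CoA desaturase gene, rose by 0.81 (adjusted p = 0.038) with the same sign on all 4 probe sets, the 1 call among 17 other genes of fatty acid synthesis and elongation. In fatty acid oxidation, EHHADH of the peroxisome (0.67, adjusted p = 0.013) and HADHB of the mitochondrial trifunctional protein (0.30, adjusted p = 0.035) rose and 15 of 17 did not pass. Of 8 genes of the AMPK complex and its activating kinase, PRKAG2 rose (0.29, adjusted p = 0.036), CAB39 fell (-0.44, adjusted p = 0.040) and 6 did not pass. With probe sets averaged PRKAG2 was at 0.15 (adjusted p = 0.27) and CAB39 at -0.27 (adjusted p = 0.062). Medians of these 7 lists lay between -0.12 and 0.11, beside 0.02 over all genes. LIPA and CDS2 kept their calls whichever array was left out. SOAT1 was called in 4 of those 6 fits and EHHADH in 2. RNF139, LPCAT3, SCD5, AGPAT1, HADHB, PRKAG2 and CAB39 were each called in 1, the fit without siControl replicate 3. With a trended robust variance and all arrays these, apart from SCD5, did not pass (adjusted p of 0.052 to 0.073). Without siControl replicate 3, a fit in which 27.2% of all genes passed, each of these lists held between 2 and 10 calls.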

How the data were processed

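Total RNA from 6 samples of SUM149 cells was labelled with biotin and hybridised to Affymetrix HG-U133 Plus arrays, per the labels' protocols. The authors deposited 1 log2 value for each of 54675 probe sets and array. The log base was taken from the range of the values, 4.28 to 15.59, and is not written in the table. The submitters' processing notes list MAS5 and RMA without saying what each did; the tool behind these values is therefore not stated. The medians of the arrays were 7.87 to 7.90, so the values were taken as already normalized and used unaltered.

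Control probe sets (62) were left out. Symbols came from the platform annotation, updated through the gene number against RefSeq (GRCh38.p14). Each gene was represented by the single-symbol probe set with the highest mean over 6 arrays. Groups and replicate numbers came from the sample titles, and the test was limma (version 3.58.1, under R 4.3.3; lmFit and eBayes, 2-sided, no block). The code was tested on simulated data. The number of arrays limits the precision. Same-numbered arrays did not deviate together (correlations of -0.0811, 0.0234 and -0.0389), so the numbers were not taken to pair them.

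The 42 genes and the other lists were chosen with earlier results of these data known, and no p-value was adjusted over a list alone. All measured genes of the pathway could be named; of each other list, up to 3 called genes by p, or the 1 with the smallest p where none was called. The alternatives tried were a filter on dim genes (gene means above 8.74), quantile normalization, median centring of arrays, other probe set rules, a trended robust variance, a replicate block and leaving out each array. Counts for the related lists without siControl replicate 3 and under the block were added after seeing the data.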

Additional observations from a re-analysis of the deposited data

How the results depend on the processing

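The number of genes called across the table moved most with the arrays used. With 1 array left out it ran from 102 to 2423 higher and from 120 to 2952 lower, beside 623 and 825 with all arrays; the high ends came without siControl replicate 3 and the low ends without siTIG1 replicate 2. Among the 37 lipid synthesis genes the same fits gave 1 to 4 higher and 0 to 12 lower. With every probe set tested, 1171 probe sets were higher and 1566 lower. When the probe sets of each gene were averaged, or with a trended robust variance, 2 lipid synthesis genes were lower in place of 4. With the replicate number as a block (replicate block) 104 genes were higher and 134 lower, and 0 lipid synthesis genes passed limma's threshold in either direction (the adjusted p of AACS was 0.058), while 2 higher and 11 lower had an unadjusted p under 0.05, against 8.33% and 10.3% of all genes. Under the block 0 genes passed in each of the 7 related lists too, with 0 to 3 higher and 1 to 5 lower in each at an unadjusted p under 0.05; the adjusted p was 0.055 for LIPA, 0.053 for CDS2, 0.067 for SOAT1, 0.08 for EHHADH and 0.11 for SCD5. No array correlated best with the other group's array of its own number, and the fit with a block has fewer residual degrees of freedom.

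The median over the sterol genes moved by less than the replicate spread under every alternative run, and that over the fatty acid genes by more only with the mean of probe sets (0.02). The rises and falls named as called kept their sign under each alternative and each array left out, and signs changed only for genes that were not called. Under the mean of probe sets SQLE was at -0.06, DHCR7 at 0.05, SREBF2 at -0.11, ACLY at 0.13, ACACA at 0.03, ACACB at -0.06, SCD at 0.10 and AGPAT2 at 0.02. Under quantile normalization TM7SF2 was at 0.01, HSD17B7 at 0.04, DHCR7 at 0.00 and AGPAT2 at 0.05, and with x_at probe sets taken last IDI1 was at -0.21. With 1 array left out MVD ran from -0.02 to 0.10, SQLE from -0.07 to 0.20, TM7SF2 from -0.06 to 0.04, HSD17B7 from -0.05 to 0.02, EBP from 0.00 to 0.44, DHCR7 from -0.11 to 0.04, ACLY from -0.04 to 0.01 and AGPAT2 from -0.05 to 0.06. The cause of these changes was not tested. Values normalized to one distribution cannot show a shift of most genes one way, low signals have no stated floor, and a fold against a dim probe set can be too small.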
